A study of Drosophila melanogaster with 15 samples.

Results

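The genes described here encode structural proteins of the insect cuticle, and they were measured in adult male fruit flies with and without Dsup, untreated and after ionizing radiation. They were chosen by symbol in the array annotation: every symbol that starts with Cpr and a digit, with Lcp, with Ccp84 or with Twdl, and Acp65Aa. A gene counted as measured when a probe set carried its symbol alone, and of several such probe sets the brightest on average over the 15 arrays stood for the gene. This gave 101 genes on 103 such probe sets, out of 11982 genes with a probe set of their own and 18769 probe sets tested. A gene table of RefSeq (Release 6 plus ISO1 MT) lists 121 symbols that follow these rules. The other 20, among them Lcp1, Lcp2, Lcp3, Lcp4, Lcp65Ag1, Lcp65Ag2 and Cpr57A, had no probe set to themselves and were not analysed here. No gene was removed for a low level.

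Insect cuticle is a layered extracellular matrix of chitin fibres and proteins, secreted by the epidermis, the tracheae and the ectodermal parts of the gut. Most Cpr proteins carry the Rebers and Riddiford consensus, a chitin-binding stretch; the Lcp (larval cuticle protein) and Ccp84 genes and Acp65Aa (adult cuticle protein 65Aa) belong to the same protein family under older names, and the Twdl genes form the separate Tweedle family. Larva, pupa and adult use different sets of these proteins, pulses of the moulting hormone ecdysone order their transcription, and the epidermis of a newly emerged fly goes on adding inner cuticle for some days.

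Each array held RNA from the whole bodies of 25 males, 3 days old, raised at 25 °C. Control flies gave 4 untreated and 3 irradiated samples, labelled as biological replicates. Flies that express Dsup, a tardigrade protein that binds nucleosomes, gave 4 untreated and 4 irradiated samples, 1 for each of the same 4 transgenic lines. The dose was 1000 Gy. The promoter that drives Dsup, the stock behind the control flies and the time between irradiation and RNA isolation are not stated in the labels, so a difference in genetic background between control and Dsup flies cannot be told apart from the transgene.

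Levels are log2 signals of probe sets after quantile normalization over the 15 arrays. Before that step the mean of all deposited values was 4.63 for untreated and 4.87 for irradiated control flies, and 4.04 for untreated and 4.49 for irradiated Dsup lines. These offsets put the median change over all probe sets anywhere from -0.61 to 0.47 in the comparisons below. Pairs of irradiated control arrays shared 6814 to 7744 identical deposited values, against 209 at most in a pair of any other group. Of the 101 cuticle genes, 79 had at least 1 such identical pair and 32 had all 3 irradiated control values identical, which lowers the spread in that group. The 3' minus 5' level of the actin and GAPDH control probe sets, a measure of RNA quality, averaged 1.02 for untreated and 1.42 for irradiated control flies, and 1.12 for untreated and 1.31 for irradiated Dsup lines. It ran from 0.79 to 1.23 and from 1.33 to 1.53 in control flies, and from 1.01 to 1.19 and from 1.24 to 1.45 in Dsup lines. Treatments did not overlap in it, so a model with this level as a covariate can hardly tell it apart from radiation. Of the genes that mark adult males, the accessory gland genes Acp26Aa, Acp36DE and Acp62F and the sperm gene Mst87F were among the brightest probe sets, at the 97.8th percentile or higher, while 5 female genes, of yolk and eggshell, ran from 16.1 for Yp1 to 54.7 for Yp3 on the same percentile scale. The larval glue genes Sgs3, Sgs5, Sgs7 and Sgs8 lay between the 12.7th and the 34.2nd percentile. The arrays hold whole flies, in which fewer cells of a type and less RNA per cell cannot be told apart.

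Most cuticle genes had low signals in these adults, and a small set had very high ones. The median level of the 101 genes was 2.92, at the 35.7th percentile of all probe sets, and 26 genes lay below the 25th percentile. With classes set at the 40th and 75th percentile of all probe sets, at levels of 3.35 and 6.34, the genes fell into 60 low, 27 middle and 14 high. Closest to the upper boundary, Cpr67Fb lay below it at 6.12 and Cpr51A above it at 6.40. Signals depend on the probes as well as on the RNA, so a class describes the signal and does not rank amounts of RNA between genes.

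The high class was nearly all Cpr genes. Of 66 Cpr genes, 13 were high, 18 middle and 35 low. Acp65Aa, at 10.2, was the high member among the 8 Lcp genes and Acp65Aa, of which 6 were low, Lcp65Aa was middle at 5.66, and Lcp65Af was the lowest at 1.21. The 24 Tweedle genes had no high member: 17 were low and 7 middle, from TwdlS at 1.17, the lowest of all 101 genes, to TwdlP at 5.38. The 3 measured Ccp84 genes ran from Ccp84Ag at 1.34 to Ccp84Ac at 3.57. Cpr49Ae had the highest mean of all, 11.4, at the 99.5th percentile.

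**Figure D1:**
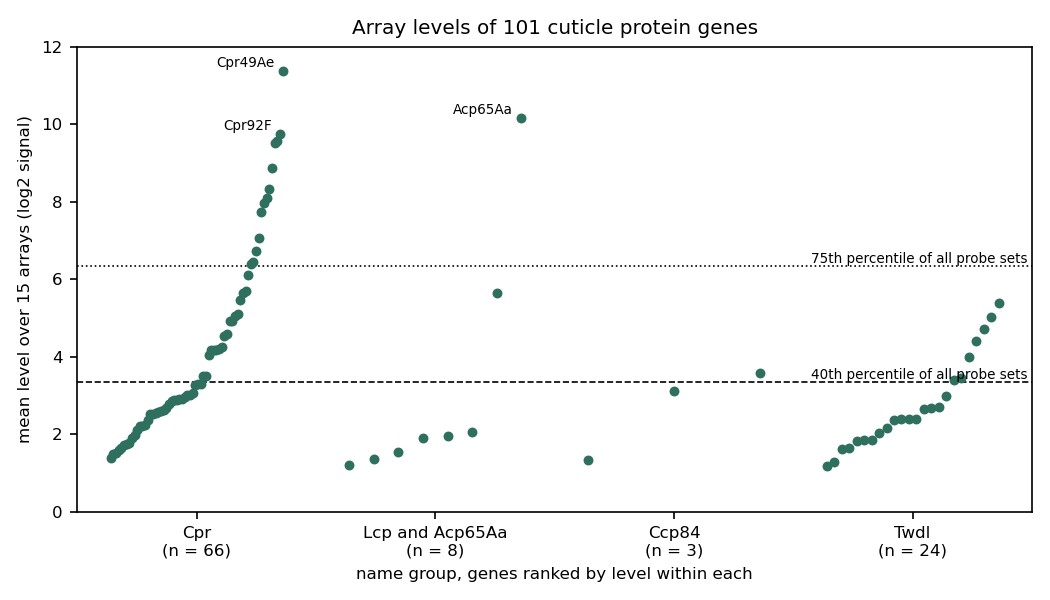
Mean level over the 15 arrays (log2 signal, vertical axis) of each of the 101 cuticle genes, ranked within 4 name groups (horizontal axis); dashed and dotted lines mark the 40th and 75th percentile of all probe sets, at 3.35 and 6.34. 14 points lie above the upper line, 13 of them Cpr genes and 1 Acp65Aa, and no Tweedle gene does.

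Genes that lie next to each other in the genome differed widely in level. Placed in gene order, with at most 3 other protein-coding genes between neighbours, the measured members formed 16 clusters. In the cluster of 8 from Cpr49Aa to Cpr49Ah the levels ran from 1.59 to 11.4, with 4 low, 2 middle and 2 high genes. In the cluster of 11 that holds Acp65Aa with 6 Lcp65 and 4 Cpr65 genes they ran from 1.21 to 10.2, with 7 low genes. The Cpr97Ea and Cpr97Eb pair was high in both, at 6.72 and 7.98. The 12 genes from TwdlM to TwdlQ were 7 low and 5 middle, and the 3 genes from Cpr65Ea to Cpr65Ec and the 3 from Cpr78Ca to Cpr78Cc were all low.

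In control flies, radiation moved about as large a share of cuticle genes as of all probe sets, and the genes that moved were mostly low-signal ones that rose. Of 101 genes, 25 rose and 6 fell at an adjusted p below 0.05 (limma, Benjamini-Hochberg over all probe sets), while 34% of all probe sets were called, 16.9% higher and 17.1% lower. The median change was 0.15 on the log2 scale over the cuticle genes and -0.01 over all probe sets. Centred on ribosomal protein genes instead, the split was 14 higher and 16 lower, and on the values as deposited 46 higher and 3 lower, so the balance of rises over falls depends on the scaling. With the 3' minus 5' level as a covariate, 10 genes were called, and the 21 calls lost kept their sign. The median change of the low genes was then 0.24, beside 0.23 without the covariate, and that of the high genes 0.39, beside 0.22. Of the 31 genes, 22 were called whichever 1 array was left out. Of 3 genes listed as markers of larval fat body, 1 was measured, the larval serum protein gene Lsp2. It averaged 7.40 in untreated and 9.55 in irradiated control flies, and 9.25 in untreated and 9.63 in irradiated Dsup lines. What part larval tissue has in these calls was not tested.

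By level, 22 low genes rose and 4 fell out of 60 in control flies, against 30.3% of low probe sets called. Among the 27 middle genes 1 rose and 1 fell, against 37.2% of middle probe sets called. Of the 14 high genes 2 rose and 1 fell, against 35.2% of high probe sets. By name, 15 Cpr genes rose and 3 fell out of 66, 5 Tweedle genes rose and 3 fell out of 24, 3 of the 8 Lcp genes and Acp65Aa rose, and 2 of the 3 Ccp84 genes rose. The 11 genes of the Acp65Aa cluster, a grouping chosen after seeing the data, gave 6 rises and 1 fall. Beside these counts by name and by cluster, 16.9% of all probe sets rose and 17.1% fell. Ribosomal centring lost the rises of Cpr65Aw, Cpr65Az, Lcp65Ac and Lcp65Ae in this cluster. With the 3' minus 5' level as a covariate, of its calls only those of Lcp65Ag3 and Cpr65Az were kept. The values of control and irradiated control arrays did not overlap in 53 cuticle genes, beside 47.8% of all probe sets.

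**Figure D2:**
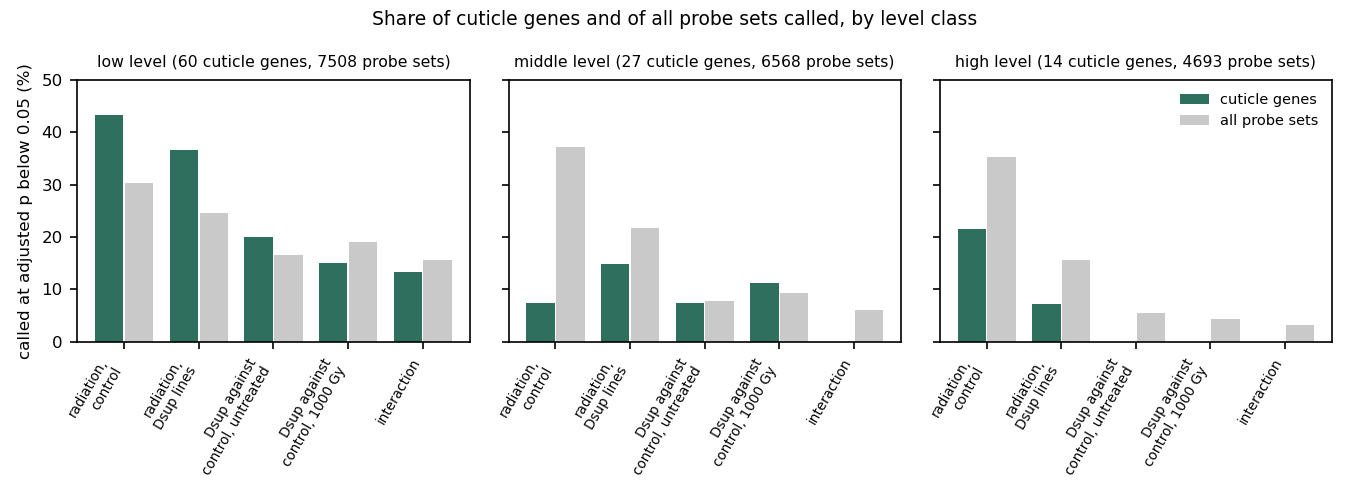
Share of cuticle genes (green) and of all probe sets (grey) called at an adjusted p below 0.05 (percent, vertical axis) in the 5 comparisons (horizontal axis), in 3 panels by level class; a missing bar is 0%. Among middle genes the share called after radiation in control flies was 2 of 27, beside 37.2% of middle probe sets, and no high gene was called in either comparison of Dsup lines with control or in the interaction.

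Cpr60D and Lcp65Ag3 were the cuticle genes that rose at least 2-fold with radiation in control flies. Cpr60D, a gene of the chitin-binding family that stands apart from the clusters, read 2.84, 2.30, 2.61 and 2.28 in the untreated control and 3.72, 3.71 and 3.72 after radiation. Every irradiated array lay above every untreated one, a rise of 1.21 (SE 0.16, 2.31-fold, adjusted p = 6.32e-05 by limma). Lcp65Ag3, a larval cuticle protein gene, read 1.59, 1.28, 1.41 and 1.20 untreated and 2.41, 2.40 and 2.41 irradiated. Its rise was 1.04 (SE 0.12, limma adjusted p = 2.13e-05), again with no overlap, and its irradiated level still lay in the low class. Both genes had identical irradiated control values as deposited in all 3 pairs.

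The other large rises among low genes were of similar size to each other. TwdlW, a Tweedle gene, read 2.30, 2.03, 2.38 and 1.91 untreated and 2.85, 2.95 and 2.86 irradiated, a rise of 0.73 (SE 0.13). Cpr49Aa rose by 0.72 (SE 0.15), from between 2.40 and 2.55 to between 3.07 and 3.26. Cpr72Eb rose by 0.65 (SE 0.10), from between 1.84 and 1.96 to between 2.48 and 2.61. The irradiated arrays lay above all untreated ones in each of the 3 genes.

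A pair of high-signal genes rose and 1 fell. Cpr65Au, in the cluster of Acp65Aa, read 9.31, 9.06, 8.94 and 9.09 in the untreated control and 9.85, 9.82 and 9.82 after radiation. The groups did not overlap, and the rise was 0.73 (SE 0.13, limma adjusted p = 0.000816). Cpr62Bb rose by 0.46 (SE 0.16, limma adjusted p = 0.0362). Without untreated control 2, 3 or 4 or any 1 irradiated control, Cpr62Bb was no longer called (limma adjusted p from 0.0630 to 0.115). Cpr67B, the gene that fell, read 7.44, 8.48, 8.09 and 8.43 untreated and 7.26, 7.26 and 7.31 irradiated. It fell by 0.84 (SE 0.21, limma adjusted p = 0.0076), and the first untreated array lay closest to the irradiated ones. None of these 3 high genes was called with the 3' minus 5' level as a covariate, a level that did not overlap between the treatments.

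The remaining falls in control flies came from 1 middle gene and 4 low ones. Cpr65Av, in the cluster of Acp65Aa, fell by 0.60 (SE 0.15), from between 3.38 and 3.83 to between 3.02 and 3.10. Cpr76Ba fell by 0.48 and the Tweedle genes TwdlX, TwdlN and TwdlF fell by 0.48, 0.48 and 0.35. Among middle genes Cpr47Ee rose by 0.48 (SE 0.13). Cpr67Fb changed more than any of these on average, by -1.53, without passing the test (SE 0.69, limma adjusted p = 0.0987). It read 7.20, 7.91, 6.79 and 8.12 in the untreated control and 5.92, 5.84 and 6.15 after radiation, and the groups did not overlap.

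In the Dsup lines, radiation moved 27 cuticle genes, 18 higher and 9 lower, where 21.3% of all probe sets were called, 10.7% higher and 10.6% lower. The median change was 0.10 over the cuticle genes and 0.01 over all probe sets. Centring on ribosomal protein genes gave 7 higher and 16 lower, and the deposited values gave 74 higher and 0 lower, so the split again depends on the scaling. With the 3' minus 5' level as a covariate, 12 genes were called, and the 15 calls lost kept their sign. The median change of the low genes was then 0.15, beside 0.16 without it, and that of the high genes 0.21, beside 0.08. Of the 27 genes, 17 were called whichever 1 array was left out. By level, 15 low genes rose and 7 fell, against 24.5% of low probe sets called, 2 middle genes rose and 2 fell, against 21.7% of middle ones, and 1 high gene rose, against 15.6% of high ones. The arrays did not overlap in 26 genes, beside 21.4% of all probe sets.

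Cpr78Cb, a low-signal gene of the chitin-binding family, had the largest rise in the Dsup lines. It read 1.999, 1.98, 1.89 and 1.74 in the untreated lines 1 to 4 and 2.67, 2.94, 2.64 and 3.20 after radiation. All irradiated lines lay above all untreated ones, a rise of 0.96 (SE 0.12, limma adjusted p = 0.000118). Cpr60D read 2.87, 3.10, 3.42 and 2.75 untreated and 3.97, 4.18, 3.85 and 3.75 irradiated, a rise of 0.90 (SE 0.15). Lcp65Ag3 read 1.46, 1.82, 1.49 and 1.64 untreated and 2.58, 2.39, 2.31 and 2.10 irradiated, a rise of 0.75 (SE 0.11). The arrays of the Dsup lines did not overlap in either gene.

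Other rises in the Dsup lines were Cpr78E by 0.86 (SE 0.15), TwdlW by 0.65 (SE 0.12) and TwdlK, a middle Tweedle gene, by 0.54 (SE 0.13). Lcp65Aa, of the larval cuticle genes, rose by 0.53 (SE 0.18, limma adjusted p = 0.0431) on its brighter probe set. Without untreated control 3, any 1 irradiated control, untreated line 1, 2 or 4 or irradiated line 3 or 4, Lcp65Aa was no longer called (limma adjusted p from 0.0524 to 0.115). A second probe set of Lcp65Aa, with a mean of 1.89, differed by 0.02 in the same comparison and was not called, and it fell by 0.34 in control flies. Cpr47Ef, a high gene that was not called on its brighter probe set, was called on its other one, with a mean of 3.33, by 0.37 with radiation in the Dsup lines and by 0.51 between irradiated genotypes. Cpr65Au, the high gene called here, rose by 0.39 (SE 0.12, limma adjusted p = 0.0383), with 9.64, 9.68, 9.23 and 9.16 untreated and 9.97, 9.95, 9.74 and 9.60 irradiated. Irradiated line 4 lay below untreated lines 1 and 2, so the groups overlapped. Without untreated line 3 or 4, irradiated line 1, 2 or 3, or any 1 irradiated control, Cpr65Au was no longer called in the Dsup lines (limma adjusted p from 0.0507 to 0.113).

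The falls in the Dsup lines were led by Cpr62Ba, by 0.66 (SE 0.16), and Cpr64Ad, by 0.53 (SE 0.12). Cpr62Ba read 2.76, 3.60, 3.49 and 3.57 untreated and 2.73, 2.48, 2.73 and 2.81 irradiated. Untreated line 1 lay among the irradiated arrays, and the change was -0.03 between the arrays of line 1 and -0.88 over the other lines. Cpr31A fell by 0.40, Lcp65Af by 0.40, Cpr65Eb by 0.37, Ccp84Ac by 0.31 and the Tweedle gene TwdlN by 0.31.

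The radiation comparisons of control flies and Dsup lines set different arrays against each other. Both rest on the same quantile normalization and on a spread pooled over all groups, so their calls are not independent. Of the genes that rose, 7 were the same in both, 28% of the 25 in control flies and 38.9% of the 18 in Dsup lines: Cpr60D, Lcp65Ag3, TwdlW, Cpr65Au, Cpr47Eb, Cpr5C and TwdlR. Over all probe sets 973 rose in both, 30.7% and 48.5% of those that rose. TwdlN fell in both, which is 16.7% of the 6 falls in control flies and 11.1% of the 9 in Dsup lines. Over all probe sets 1134 fell in both, 35.4% and 57.1% of those that fell. Lcp65Ac rose in control flies and fell in Dsup lines, and Cpr76Ba fell in control flies and rose in Dsup lines. Each of the calls for Lcp65Ac and Cpr76Ba was lost when certain single arrays were left out.

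**Figure D3:**
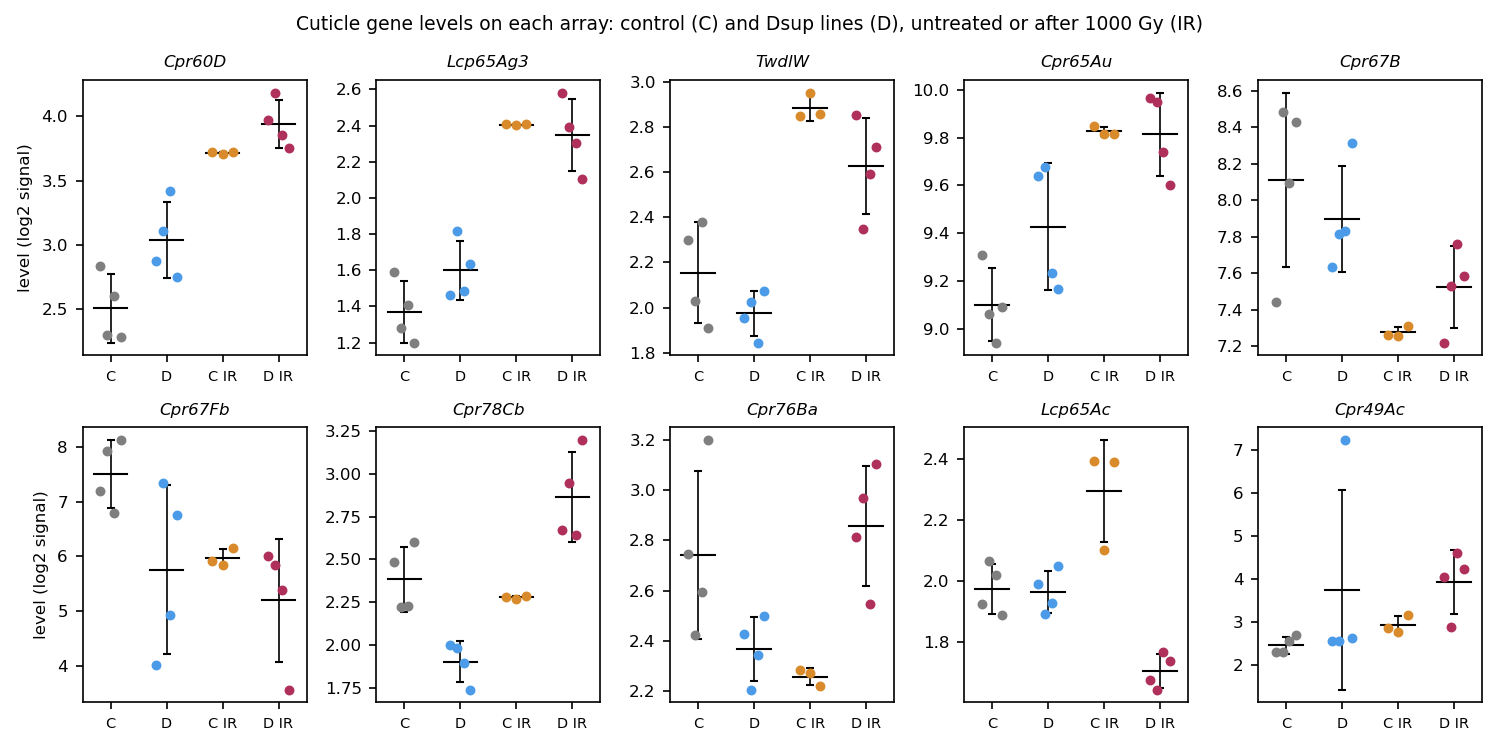
Level (log2 signal, vertical axes with separate scales) of 10 cuticle genes on each array, in control flies (C) and Dsup lines (D), untreated or after 1000 Gy (IR); points are arrays, horizontal lines group means and bars SD. Cpr60D and Lcp65Ag3 are higher after radiation in both genotypes without overlap, Cpr78Cb is higher after radiation in the Dsup lines, and the untreated Dsup line 3 stands apart in Cpr49Ac at 7.23.

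Untreated Dsup lines differed from untreated control flies in 14 cuticle genes, all of them low or middle in signal. There were 9 higher and 5 lower, where 10.7% of all probe sets were called, 5.44% higher and 5.27% lower. Centring each array on its median gave 23 higher and 3 lower, ribosomal centring 18 higher and 2 lower, and the deposited values 0 higher and 78 lower, while their all-probe-set median lay at -0.61. By level the calls were 12 of 60 low genes, against 16.5% of low probe sets, 2 of 27 middle genes, against 7.75%, and 0 of 14 high genes, against 5.52%. At an unadjusted p below 0.05, limma gave 2 of the high genes. Values did not overlap in 18 genes, beside 13.6% of all probe sets. The count was 7 without untreated control 4, and 9 without untreated control 2 or without untreated Dsup line 3. Ccp84Ae, Cpr72Ec and TwdlY were called whichever 1 array was left out.

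Ccp84Ae and Ccp84Ac, of the Ccp84 cluster, were both higher in the untreated Dsup lines. Ccp84Ae read 2.96, 2.71, 2.62 and 2.71 in control flies and 3.20, 3.21, 3.45 and 3.37 in Dsup lines 1 to 4. All Dsup lines lay above all control arrays, a difference of 0.56 (SE 0.12, limma adjusted p = 0.0124). Ccp84Ac was higher by 0.40 (SE 0.10), with control arrays between 3.24 and 3.56 and Dsup lines between 3.77 and 3.96. The third measured gene of the cluster, Ccp84Ag, was not called.

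After quantile normalization, neighbours in the Cpr72E cluster went in opposite directions. Cpr72Ea was higher in the untreated Dsup lines by 0.50 (SE 0.13), with overlapping arrays, and Cpr72Eb by 0.31 (SE 0.09), while Cpr72Ec, which encodes a protein of the corneal lens, was lower by 0.49 (SE 0.11). Cpr72Ec read 5.25, 5.44, 5.18 and 5.27 in control flies and 4.40, 4.91, 4.89 and 4.98 in Dsup lines 1 to 4. The groups did not overlap, and line 1 was the lowest. Cpr72Ec was called whichever 1 array was left out. Cpr72Eb was not called without any 1 untreated control, nor Cpr72Ea without untreated control 2, 3 or 4 or untreated Dsup line 1 or 3. On the deposited values, where the median over all probe sets was -0.61, Cpr72Ea and Cpr72Eb were lower in Dsup lines, so their direction depends on the scaling.

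Among Tweedle genes, TwdlY and TwdlX, which lie in 1 cluster, were lower in the untreated Dsup lines. TwdlY read 2.91, 2.79, 2.96 and 2.96 in control flies and 2.32, 2.42, 2.33 and 2.22 in Dsup lines, a difference of -0.58 (SE 0.10, limma adjusted p = 0.00222). TwdlX was lower by 0.39 (SE 0.11). Cpr78Cb was lower by 0.48 (SE 0.12) and Lcp65Ad by 0.36 (SE 0.10). Cpr60D was higher by 0.53 (SE 0.15), with control and Dsup arrays overlapping.

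Cpr49Ac and Cpr67Fb differed by more than 2-fold between untreated groups on average and did not pass the test. Cpr49Ac read 2.30, 2.30, 2.55 and 2.69 in control flies and 2.55, 2.56, 7.23 and 2.64 in Dsup lines 1 to 4, a difference of 1.28 (SE 0.78, limma adjusted p = 0.308). Line 3 lay far above the other lines, which lay within or close to the control range. After radiation the same line read 4.59, with 4.05, 2.87 and 4.23 in lines 1, 2 and 4. Cpr67Fb read 4.03, 7.33, 4.94 and 6.75 in the untreated Dsup lines, against 6.79 to 8.12 in control flies, a difference of -1.74 (SE 0.64, limma adjusted p = 0.0933). Dsup lines 1 and 3 lay far below the other arrays and lines 2 and 4 close to the control.

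After radiation, Dsup lines differed from control flies in 12 cuticle genes, 7 higher and 5 lower, where 12% of all probe sets were called, 5.91% higher and 6.05% lower. Median centring gave 19 higher and 3 lower, ribosomal centring 12 higher and 4 lower, and the deposited values 0 higher and 50 lower. By level the calls were 9 of 60 low genes, against 19% of low probe sets, 3 of 27 middle genes, against 9.36%, and 0 of 14 high genes, against 4.28%, where limma gave 1 high gene at an unadjusted p below 0.05. Values did not overlap in 28 genes, beside 36.2% of all probe sets. Without any 1 of the 3 irradiated control arrays 3 genes were called, without irradiated Dsup line 3 there were 7, and without line 4 there were 6. Cpr78Cb, Lcp65Ac and TwdlC were called whichever 1 array was left out. With the 3' minus 5' level as a covariate 7 were called, the 5 calls lost kept their sign, and the median difference of the low genes was -0.06 with and without it.

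The genes higher in irradiated Dsup lines than in irradiated control flies were Cpr76Ba by 0.60 (SE 0.16), Cpr78Cb by 0.59 (SE 0.13), TwdlT by 0.57 (SE 0.17), Cpr78E by 0.56 (SE 0.16), TwdlK by 0.52 (SE 0.14), TwdlM by 0.34 (SE 0.10) and TwdlV by 0.27 (SE 0.08). The lower ones were Cpr11B by 0.60 (SE 0.17), Lcp65Ac by 0.59 (SE 0.08), Cpr11A by 0.45 (SE 0.11), TwdlC by 0.39 (SE 0.09) and Lcp65Ad by 0.39 (SE 0.11). Lcp65Ad, a larval cuticle protein gene, was thus lower in Dsup lines than in control flies both untreated and irradiated, and Cpr78Cb was lower untreated and higher irradiated. Each of these 12 genes had no overlap between the groups, as had 36.2% of all probe sets. Some of them, such as Cpr11A and Cpr11B, had identical irradiated control values as deposited in all 3 pairs. With the Dsup line as a block, Cpr78E (limma adjusted p = 0.0603) and TwdlV (limma adjusted p = 0.0742) were no longer called.

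The radiation response differed between Dsup lines and control flies in 8 cuticle genes by the interaction term, all of them low in signal, where 9.08% of all probe sets were called, 4.31% higher and 4.77% lower. In 3 genes the response of the Dsup lines was the higher one and in 5 the lower one. Median centring called 5 genes, 2 and 3, ribosomal centring 4, 2 and 2, and the deposited values 14, 12 and 2. Of the 60 low genes the 8 stand beside 15.5% of low probe sets, and 0 of 27 middle and 0 of 14 high genes were called, beside 6.03% and 3.07%. At an unadjusted p below 0.05, limma gave 1 middle gene and 0 high genes. The count of 8 was 5 without irradiated control 1 or 2 or irradiated Dsup line 2, and 4 without irradiated control 3 or irradiated Dsup line 3. Cpr72Eb, Cpr76Ba, Cpr78Cb and Lcp65Ac were called whichever 1 array was left out.

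Cpr78Cb had the largest interaction, 1.07 (SE 0.18, limma adjusted p = 0.00241). Control flies read 2.48, 2.22, 2.22 and 2.60 untreated and 2.28, 2.27 and 2.28 irradiated, with overlap, beside the rise in the Dsup lines given above. Its irradiated control values were identical as deposited. Cpr76Ba had an interaction of 0.97 (SE 0.22, limma adjusted p = 0.0119). It read 2.74, 2.42, 2.60 and 3.20 in untreated and 2.28, 2.27 and 2.22 in irradiated control flies. In the Dsup lines it read 2.43, 2.20, 2.34 and 2.50 untreated and 2.81, 2.97, 2.55 and 3.10 irradiated. Cpr76Ba thus fell with radiation in control flies and rose in Dsup lines, and neither pair of groups overlapped. The fall was not called as deposited, with the 3' minus 5' level as a covariate, or without any 1 irradiated control. The rise was not called with median or ribosomal centring or with that covariate. The sign stayed the same in each of these cases.

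Lcp65Ac showed the opposite order. It read 1.92, 2.07, 2.02 and 1.89 in untreated and 2.39, 2.10 and 2.39 in irradiated control flies, and 1.99, 1.89, 1.93 and 2.05 in untreated and 1.68, 1.64, 1.77 and 1.74 in irradiated Dsup lines. It rose by 0.32 in control flies, fell by 0.26 in Dsup lines, and its interaction was -0.58 (SE 0.12, limma adjusted p = 0.0064). With the 3' minus 5' level as a covariate neither the rise nor the fall of Lcp65Ac was called. The rise was also lost with ribosomal centring and the fall with median centring, and on the deposited values the fall became a rise. The other members of the Acp65Aa cluster with a lower response in Dsup lines were Cpr65Az, at -0.53, and Lcp65Ae, at -0.42. Outside that cluster the interaction was -0.61 in Cpr72Eb, -0.51 in Cpr65Ec and 0.53 in TwdlY.

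The 14 high-signal genes set themselves apart by their spread within groups more than by differences between groups. Their SD within groups, pooled over the 4 groups, had a median of 0.492, against 0.156 for all high probe sets. Middle cuticle genes had a median SD of 0.220, against 0.171 for all middle probe sets, and low ones 0.141, against 0.138. The standard errors of the high genes were accordingly wide. In the untreated comparison of Dsup lines with control flies the SE had a median of 0.303 over the 14 genes and the outermost 95% confidence bounds were -1.47 and 1.33, so these data do not show that the high genes were alike in both genotypes.

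Within groups, most of the high genes were high on the same arrays and low on the same arrays. Acp65Aa read 10.33, 9.91, 9.92 and 8.96 in the untreated control and 10.92, 10.25, 9.97 and 9.43 in the untreated Dsup lines 1 to 4. After radiation it read 10.41, 10.36 and 10.31 in control flies and 10.22, 9.19, 11.06 and 11.17 in Dsup lines 1 to 4. The lowest arrays were thus untreated control 4, untreated Dsup line 4 and irradiated Dsup line 2, the highest irradiated Dsup lines 3 and 4 and untreated Dsup line 1, and the 3 irradiated controls lay close together.

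Cpr49Ae, the gene with the highest mean, ranked the Dsup lines in the same order as Acp65Aa, untreated and irradiated, with a smaller range. It read 11.35, 11.21, 11.11 and 10.74 in the untreated control and 11.90, 11.60, 11.33 and 10.99 in the untreated Dsup lines. After radiation it read 11.57, 11.49 and 11.54 in control flies and 11.26, 10.80, 11.85 and 11.89 in the Dsup lines. The deviations from the group means of Cpr49Ae and Acp65Aa correlated over the 15 arrays with r = 0.98 (Spearman 0.95), and with r = 0.98 over the 13 arrays without irradiated Dsup line 2 and untreated control 4, the 2 farthest from the median.

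Over the 91 pairs of the 14 high genes the median correlation of deviations from group means was 0.71, and 46 pairs lay above 0.7. Over all pairs of high probe sets the median was 0.00. Without the 2 arrays named above the median of the 91 pairs was 0.60. Of these genes, 3 did not follow the others: Cpr51A correlated with Acp65Aa at 0.35, Cpr65Au at 0.08 and Cpr67B at -0.37. The 11 left, a subset chosen after the correlations were seen, had correlations of 0.48 to 0.98 with a median of 0.86. These are Acp65Aa, Cpr47Ea, Cpr47Ef, Cpr49Ab, Cpr49Ae, Cpr62Bb, Cpr62Bc, Cpr92F, Cpr97Ea, Cpr97Eb and Cpr100A. Correlated genes here share the 15 arrays and their RNA samples, and 3 of these arrays carry identical deposited values for many genes. Without the irradiated controls the median of the 11 was 0.87, and on the deposited values it was 0.85.

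**Figure D4:**
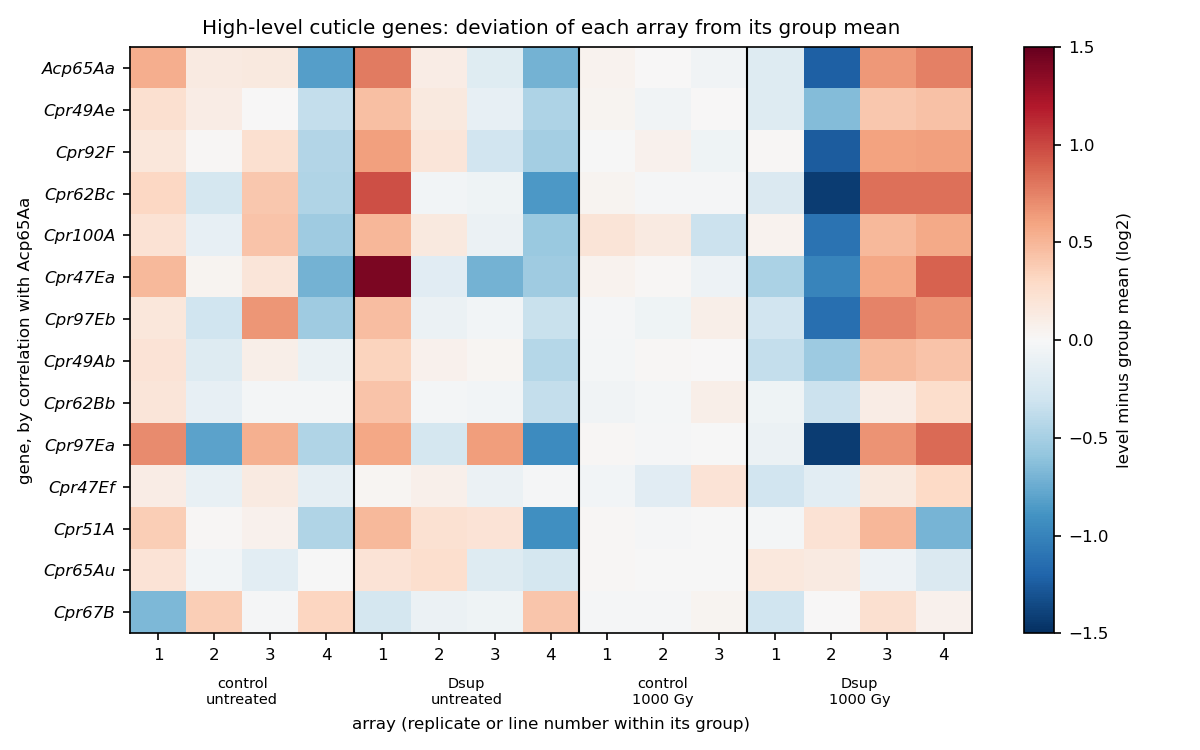
Deviation of each array from its group mean (log2, colour) for the 14 high-signal cuticle genes (rows, ordered by correlation with Acp65Aa) on the 15 arrays (columns, by group). Most rows are blue together on untreated control 4, untreated Dsup line 4 and irradiated Dsup line 2, the irradiated controls are pale throughout, and Cpr51A, Cpr65Au and Cpr67B at the bottom do not follow.

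**Figure D5:**
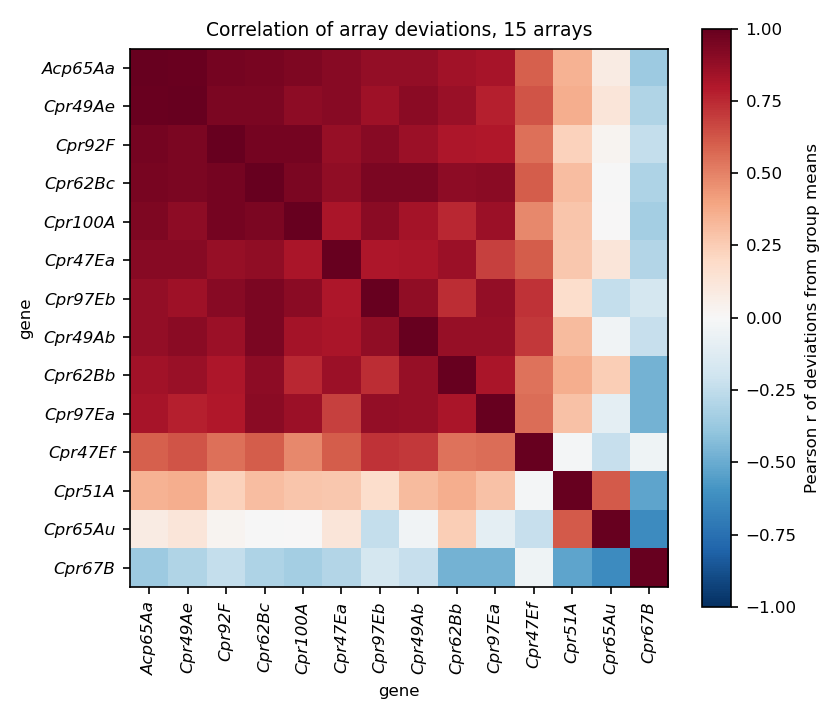
Pearson correlation over 15 arrays (colour) of deviations from group means for each pair of the 14 high-signal cuticle genes (both axes, in the order of correlation with Acp65Aa). The upper 11 genes correlate at 0.48 to 0.98, and the lowest rows, Cpr51A, Cpr65Au and Cpr67B, stand apart at 0.35, 0.08 and -0.37 with Acp65Aa.

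Few of the other cuticle genes, and a number of genes outside the family, varied with Acp65Aa in the same way. Of the 27 middle genes 5 correlated with it above 0.7, and of the 60 low genes 1, Cpr49Aa at 0.83. The median correlation was 0.36 over the middle genes and -0.08 over the low ones. Cpr49Ah followed Acp65Aa at r = 0.94, Cpr92A at 0.91, Cpr76Bd at 0.84, Cpr64Aa at 0.77 and Cpr50Cb at 0.73, while the middle gene Cpr73D and the low gene Cpr72Eb ran against it, both at -0.72. Over all 18769 probe sets, 577, or 3.07%, correlated with Acp65Aa above 0.7, and among high probe sets 302 of 4693, or 6.44%. Of 18 measured genes of chitin synthesis and turnover, 11 lay above 0.7, among them the chitinases Cht6 and Cht7, both at 0.95, and the epidermal chitin synthase kkv at 0.90. Above 0.7 were also 5 of 12 genes of the apical matrix, 5 of 14 further cuticle genes and 4 of 11 genes of tanning and pigmentation. Of 17 genes that control moulting, 1 was. The choice of Acp65Aa as reference and of 0.7 was made after values were seen. Middle and high cuticle genes in the same gene cluster had a median correlation of 0.60 over 33 pairs, against 0.29 over the 787 other pairs, and among the low genes it was 0.08 over 72 neighbour pairs and 0.04 over the other 1698.

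Markers of some other tissues moved with Acp65Aa from array to array, and those of others did not. The chitin-matrix and tracheal genes Gasp, serp and verm correlated with it at 0.93, 0.94 and 0.83. These genes also belong to the lists of further cuticle genes and chitin genes counted above. The flight muscle genes Act88F and fln lay at 0.87 and 0.90 and up at 0.63, and the lens gene retinin at 0.81. The photoreceptor gene trp lay at -0.46, the oenocyte genes Cyp4g1, Desat2 and FASN2 at -0.69, -0.40 and -0.49, and Mst87F at -0.51. The accessory gland genes Acp26Aa, Acp36DE and Acp62F lay at 0.60, 0.51 and 0.76, and Lsp2 at -0.01. The deviations of the 3' minus 5' level correlated with those of Acp65Aa at -0.32 and those of the hybridisation spike-in level at -0.35. The 18S ribosomal RNA level, which was 7.48 on untreated control 4 and between 11.3 and 12.3 on the other arrays, lay at 0.51. What part tissue makeup or RNA quality has in the shared pattern was not tested.

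Of 19 further cuticle genes outside these symbols, 14 were measured. With radiation 3 rose and 0 fell in control flies, 21.4% called beside 34% of all probe sets, and 4 rose in Dsup lines, 28.6% beside 21.3%. Edg91, an ecdysone-dependent cuticle gene, rose by 0.85 (SE 0.14) in control flies and by 0.45 (SE 0.13) in Dsup lines. Pcp, a pupal cuticle protein gene, rose by 0.56 (SE 0.11) and 0.35 (SE 0.10), and obst-E, which encodes a chitin-binding protein, by 0.62 (SE 0.11) and 0.34 (SE 0.10). Edg78E rose by 0.27 in Dsup lines. Vajk1 was lower by 0.83 (SE 0.19) in untreated Dsup lines, while in irradiated ones Tb, the gene of the Tubby body shape, was higher by 0.67 (SE 0.12) and Edg91 lower by 0.45. Tb also had an interaction of 0.56 (SE 0.16).

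Of 21 genes of chitin synthesis and turnover, 18 were measured, and 22.2% were called with radiation in control flies and 5.56% in Dsup lines, beside 34% and 21.3% of all probe sets. Their median change was -0.27 in control flies and -0.10 in Dsup lines. On the deposited values it was 0.04 and 0.39, beside 0.23 and 0.47 over all probe sets. Radiation lowered 3 in control flies, Gfat1, which makes the first step of the amino sugar pathway, by 0.76 (SE 0.14), the chitin synthase Chs2 by 0.71 (SE 0.19) and mmy, which makes the activated sugar for chitin, by 0.30 (SE 0.09), and it raised the chitinase Cht10 by 0.37 (SE 0.11). In Dsup lines Gfat1 fell by 0.51 (SE 0.13), and the other 17 were not called. No gene of this list was called between genotypes or in the interaction by limma, where 0, 3 and 2 genes had an unadjusted p below 0.05 in untreated flies, irradiated flies and the interaction. The chitin synthase kkv was not called in any comparison.

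Among 16 genes of tanning and pigmentation, 11 were measured, and 3 rose and 2 fell with radiation in control flies, 45.5% called beside 34% of all probe sets. In Dsup lines 18.2% were called, beside 21.3%. The yellow family genes yellow-e, yellow-f and yellow-f2 rose by 0.79 (SE 0.21), 0.71 (SE 0.19) and 0.67 (SE 0.12), while y, the yellow gene itself, fell by 0.79 (SE 0.25) and t, the tan hydrolase, by 0.56 (SE 0.18). In Dsup lines yellow-f2 rose by 0.40 (SE 0.11) and t fell by 0.53 (SE 0.17). In untreated flies yellow-f2 was higher in Dsup lines by 0.44 (SE 0.11).

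Of 14 genes of the apical matrix, most of them of the zona pellucida domain family, 12 were measured, and 2 fell with radiation in control flies. In either radiation comparison 16.7% were called, beside 34% of all probe sets in control flies and 21.3% in Dsup lines. The low-signal gene dyl, which shapes wing hairs and bristles, fell by 0.48 (SE 0.10) there and rose by 0.33 (SE 0.09) in Dsup lines, with an interaction of 0.80 (SE 0.13). The other fall was tyn, by 0.43 (SE 0.16). In Dsup lines mey fell by 0.32 (SE 0.09), and in untreated flies it was higher in Dsup lines by 0.32 (SE 0.09).

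Of 21 genes that control moulting, 17 were measured, with 1 rise and 7 falls in control flies after radiation and 1 rise and 5 falls in Dsup lines. That is 47.1% and 35.3% called, beside 34% and 21.3% of all probe sets. The median change of the list was -0.37 in control flies and -0.16 in Dsup lines. On the deposited values it was -0.18 and 0.29, beside 0.23 and 0.47 over all probe sets. Hr38, a nuclear receptor, fell by 1.91 (SE 0.25) in control flies and by 1.49 (SE 0.23) in Dsup lines. EcR, the ecdysone receptor, fell by 1.15 (SE 0.23) in control flies. The epidermal factor grh fell by 0.82 (SE 0.20) and 0.88 (SE 0.19). Burs, which encodes a subunit of the tanning hormone bursicon, fell by 0.53 (SE 0.13) and its receptor gene rk by 0.37 (SE 0.10) in control flies, both at low signals, and CCAP rose by 0.56 (SE 0.10).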

How the data were processed

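RNA from whole male flies was measured on 15 Affymetrix Drosophila arrays. The authors deposited 1 table of log2 values per probe set. How these values were background-corrected, normalized and summarised is not given in the sources used here, and the group means differ as the report states. Each array column was matched to its sample and group through the labels. Probe sets were named from the platform annotation, whose build is not given in the sources used here, and all 101 symbols matched a RefSeq gene table (Release 6 plus ISO1 MT) used only for names and gene order.

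The deposited values of all 18952 probe sets were quantile-normalized over the 15 arrays, and 18769 of them, without 183 controls, were tested. A model of the 4 group means was fitted with limma 3.58.1 in R 4.3.3, and p-values were adjusted by Benjamini-Hochberg over all probe sets, with calls at an adjusted p below 0.05. No filter was applied. An SD or SE rests on 3 or 4 arrays a group, and their number limits the precision. The irradiated control's identical values lower the pooled spread. The model was tested on simulated data.

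The rule for named genes took, per comparison, the 6 largest rises and 6 largest falls among called cuticle genes, any cuticle gene that changed at least 2-fold, the highest gene of each subfamily, Acp65Aa, and up to 4 called genes each way from the list of further cuticle genes. Other genes were named after their values were seen. The members and lists were chosen with earlier results of these data known. Gene clusters, the subset of 11 genes and the reference gene were chosen after seeing the data. Irradiated and untreated Dsup samples are paired by line in the labels, whose deviations from the group means correlated between -0.13 and 0.10. Arrays fall into 2 sets by hybridisation spike-in level, parted at the largest gap. Other scalings, filters, blocks, a covariate and left-out arrays were tried.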

Additional observations from a re-analysis of the deposited data

Results flagged for a closer look

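For the 63 cuticle genes examined array by array, 189 sets of 1 gene in 1 group of 4 arrays were checked. In 18 of these sets 1 array lay far from the other 3. Chance gives about 1 in 20 for independent groups. The sets share arrays and the genes were named from these data, so the count cannot be compared with that rate. In the untreated control these were array 2 for Ccp84Ac at 3.24 and for Cpr64Ab at 4.06, array 4 for Cpr12A at 2.90, array 3 for Cpr23B at 1.44 and for Lcp65Af at 1.33, and array 1 for Cpr73D at 4.24. In the untreated Dsup lines they were line 4 for Cpr30B at 2.52, line 3 for Cpr49Ac at 7.23 and for Cpr64Ad at 4.60, and line 1 for Cpr62Ba at 2.76, Cpr65Av at 3.47, Cpr72Eb at 1.99 and Cpr72Ec at 4.40. In the irradiated Dsup lines all were line 4: Cpr30F at 4.90, Cpr64Ab at 4.58, Cpr64Ad at 4.30, Cpr65Av at 3.86 and TwdlF at 1.52.

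The radiation response differed between Dsup lines and control flies by the interaction term in 8 genes. The log2 difference was 1.07 for Cpr78Cb, 0.97 for Cpr76Ba, 0.53 for TwdlY, -0.61 for Cpr72Eb, -0.58 for Lcp65Ac, -0.53 for Cpr65Az, -0.51 for Cpr65Ec and -0.42 for Lcp65Ae.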

How the results depend on the processing

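The counts of cuticle genes called, 31 and 27 for radiation in control flies and Dsup lines, 14 and 12 for Dsup lines against control untreated and irradiated, and 8 for the interaction, changed under several alternatives. In that order they were 49, 74, 78, 50 and 14 on the values as deposited. Centring on the array median gave 26, 22 and 5 for the last 3, and ribosomal centring 4 for the interaction. Without probe sets below the 40th percentile, 41 cuticle genes were tested and 5, 4, 2, 0 and 0 called (limma). With the 3' minus 5' level as a covariate 10, 12 and 7 were called for radiation in control flies, in Dsup lines, and between irradiated genotypes. On the arrays with a lower spike-in level alone the counts were 16, 0, 0, 0 and 0, and on the others 7, 9, 0, 0 and 0, with fewer samples. With a replicate block by Dsup line the counts were 34, 27, 17, 12 and 10, and with the number as replicate block 35, 30, 14, 8 and 7. The Dsup line block lost Cpr50Ca (limma adjusted p = 0.0580) in the radiation comparison of Dsup lines and Cpr78E and TwdlV between irradiated genotypes, and no other call. Leaving out 1 array gave 23 to 36, 21 to 29, 7 to 17, 3 to 14 and 4 to 10. The lowest counts between untreated genotypes came without untreated control 4, and those between irradiated genotypes without any 1 irradiated control. Without the 2 arrays farthest from the median of Acp65Aa the median correlation of the high genes was 0.60, and with 1 array left out 0.62 to 0.74.

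Of 1862 values for the genes named by rule under these alternatives, 1455 kept direction and call, 391 kept the direction without the call, and 16 changed direction, all as deposited. For radiation in Dsup lines these were Ccp84Ac 0.10, Cpr31A 0.0033, Cpr65Eb 0.075, Lcp65Ac 0.19, Lcp65Af 0.080 and TwdlN 0.13. Between untreated genotypes they were Ccp84Ac -0.26, Ccp84Ae -0.030, Cpr12A -0.22, Cpr31A -0.24, Cpr60D -0.027, Cpr65Ec -0.10, Cpr72Ea -0.019, Cpr72Eb -0.16 and Lcp65Ae -0.15, and between irradiated genotypes TwdlM -0.046. Outside the rule, Cpr50Ca was 0.21 for radiation in Dsup lines and TwdlV -0.059 between irradiated genotypes as deposited. Over all probe sets the deposited medians moved by 0.47, -0.61 and -0.39 in these comparisons. The cause was not tested beyond that shift.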
